A study of Rattus norvegicus with 10 samples.

Results

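The liver turns the amino acid tryptophan into the coenzyme NAD through a chain of enzymes, of which 6 are described here: Tdo2, Kmo, Kynu, Haao, Acmsd and Qprt. Every probe set that the platform's gene table assigned to only 1 of these genes was taken, which gave 7 probe sets of 31042, or 6 genes of 14217; Qprt has 2 and each other gene rests on 1. The pathway was singled out because Kynu was among the 5 genes that had passed the test between the diets in a fit without control animal 11 (0.0352% of all genes), so the diet contrast of the 6 genes is given as a description and without a test. The signals came from the livers of 10 male rats (Rattus norvegicus, 13 weeks old), with 1 array for each liver. The food of both groups held 30 wt.% instant noodle, with fat supplying 26% of the energy, and was given for 30 days. The N-group ate it with seasonings (animals 1, 4, 7, 10 and 13) and the C-group ate it without (animals 2, 5, 8, 11 and 14); they are called seasoned and control. The labels name no strain and speak of paired feeding at about 60 g of diet per kg of body weight and day, so the comparison asks what the seasonings alone do, and no group without noodle is compared here.

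In this pathway Tdo2 (tryptophan dioxygenase) opens the ring of tryptophan, a step that in the liver is known to be induced by glucocorticoids and by tryptophan itself. Kmo (kynurenine monooxygenase, of the outer mitochondrial membrane) adds a hydroxyl group to kynurenine, Kynu (kynureninase, a vitamin B6 enzyme) cleaves the product to hydroxyanthranilate, and Haao opens that ring. The product of Haao stands at a fork. Acmsd removes a carboxyl group and sends the carbon to glutarate and complete oxidation, while quinolinate that forms without an enzyme is taken up by Qprt and joined to the NAD route.

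The promoters of Kynu and Tdo2 are shown because these genes had the clearest separation of the diets among the 6. They are the 250 bases before the transcription start in RefSeq (build GRCr8), at chr3:48188036-48188285 on the plus strand for Kynu and at chr2:169585587-169585836 on the minus strand for Tdo2. Both are printed 5′ to 3′ along the gene, and capitals mark the matches to the motifs named next.

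Kynu: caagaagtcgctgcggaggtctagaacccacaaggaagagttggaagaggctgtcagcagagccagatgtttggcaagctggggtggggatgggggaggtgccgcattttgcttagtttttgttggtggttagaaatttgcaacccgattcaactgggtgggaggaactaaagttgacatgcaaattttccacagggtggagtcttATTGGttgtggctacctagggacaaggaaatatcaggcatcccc

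Tdo2: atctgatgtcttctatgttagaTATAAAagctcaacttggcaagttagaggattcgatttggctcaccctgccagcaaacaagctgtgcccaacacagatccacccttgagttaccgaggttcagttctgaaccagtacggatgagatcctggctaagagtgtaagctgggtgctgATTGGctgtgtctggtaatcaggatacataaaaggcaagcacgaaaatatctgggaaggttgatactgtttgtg

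In all, 5 short motifs were searched on both strands in the 5 member promoters that the RefSeq table holds. The CCAAT box (CCAAT, or ATTGG on the other strand) was in 3 of 5, those of Tdo2, Kmo and Kynu, against 34.0% of 33469 rat promoters of the same length. In all 3 it lay in the reverse orientation, at 44 to 40 bases before the start in Kynu, 74 to 70 in Tdo2 and 76 to 72 in Kmo. The letters TATAAA were in the Tdo2 promoter (12.9% of promoters), at 228 to 223 bases before the start. A glucocorticoid receptor half-site (TGTTCT, 17.5% of promoters) was in the Haao promoter only. The E-box CACGTG (5.59% of promoters) and the D-box TTATGTAA (0.828%), letters that clock factors are known to bind, were in 0 of 5. These are matches of letters, and binding was not measured.

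Liver identity was checked on 43 measured genes of 51 in 9 marker lists. By limma 0 of the 43 passed the test between the diets, but so did 0.0% of all 14217 genes. At an unadjusted p under 0.05 there were 3 of the markers, beside 4.71% of all genes. They were 1 hepatocyte, 1 T and B cell and 1 neutrophil marker, each higher with seasoning. Of the 4 measured T and B cell markers 0 had an SD above 0.01, so the difference there has no measurable size. The diet groups did not overlap in 1 of the 6 measured hepatocyte markers, and in 125 of all 14217 genes. Mean signals of the hepatocyte markers lay between 12.16 and 14.34 on the log2 scale and those of the brain markers between 5.97 and 7.26, close to the array medians of 6.47 to 6.48; the extraction text in the labels speaks of brain. Of all genes, 81.6% had an SD of at most 0.01 over the 10 livers (near-constant), and the other 2613 are called varying; 5 of the 6 pathway genes were varying. Control animal 11 stood apart from the other controls in the clock output gene Dbp (7.28, with the other 4 at 9.08 to 9.43). Differences are therefore also given without this animal.

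Kynu had the clearest diet difference of the pathway. Its log2 signals in seasoned animals 1, 4, 7, 10 and 13 were 11.54, 11.51, 11.54, 11.48 and 11.54. In control animals 2, 5, 8, 11 and 14 they were 11.20, 11.31, 11.24, 11.46 and 11.25. Every seasoned liver lay above every control liver, and control animal 11 came closest to them. The means were 11.52 ± 0.03 (SD, n = 5) with seasoning and 11.29 ± 0.10 without, a difference of 0.23 ± 0.05 (SE) log2 units or 1.17-fold. Without control animal 11 the difference was 0.27, and the SD of the remaining controls was 0.04. Animals 1 to 7 alone gave 0.28 and animals 8 to 14 alone gave 0.20, a division of the animals that earlier work on these arrays had found in the data and that no label explains.

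Tdo2, the entry enzyme, showed the opposite order. The seasoned livers were at 12.02, 12.11, 12.04, 12.10 and 12.11 in the order of their animal numbers. The controls were at 12.44, 12.33, 12.24, 11.99 and 12.31. The seasoned livers lay within 0.1 log2 units of one another and below 4 of the 5 controls, while control animal 11 was the lowest of all 10. The means were 12.07 ± 0.04 (SD) and 12.26 ± 0.17, a difference of -0.19 ± 0.08 (SE) or 1.14-fold lower with seasoning. It was -0.26 without control animal 11 and -0.33 among animals 1 to 7. Among animals 8 to 14, which include animal 11, it was -0.08.

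**Figure D1:**
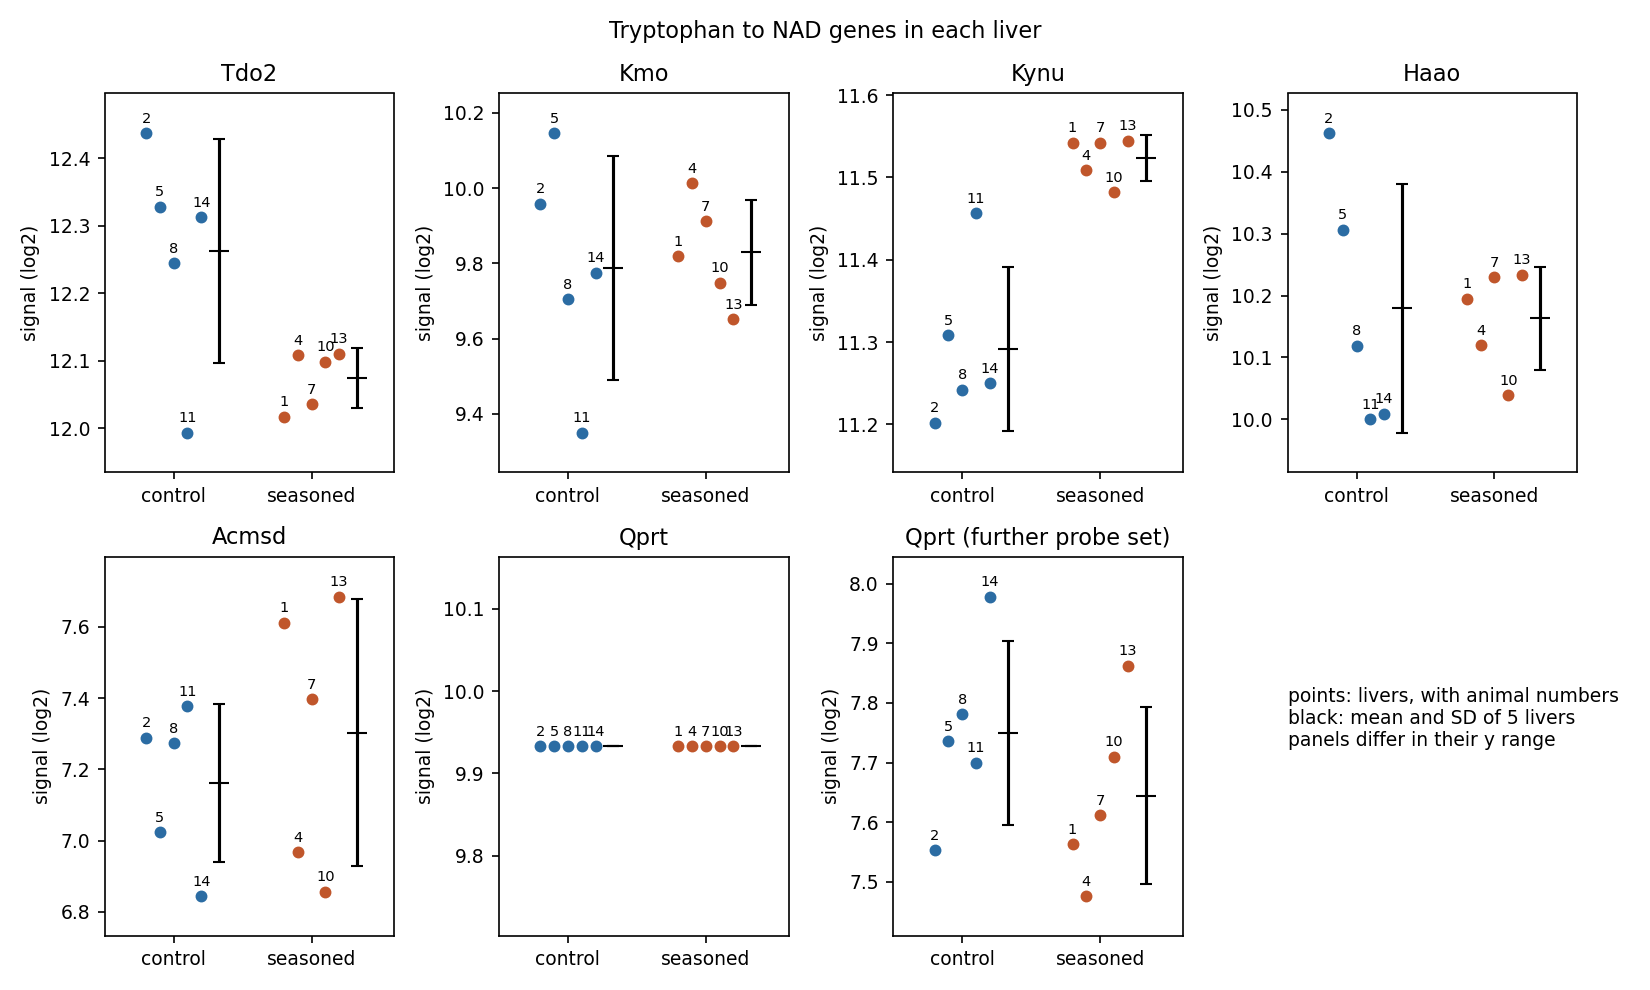
Log2 signal of each of the 7 probe sets of the 6 genes in each liver, by diet, with animal numbers; black bars are the mean and SD of 5 livers, and panels differ in their y range. Kynu is higher in all seasoned livers (11.48 to 11.54) than in all controls (11.20 to 11.46), and control animal 11 lies at the seasoned side for Kynu and Tdo2.

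For Kmo and Haao, the enzymes just before and just after Kynu, the groups overlapped and each difference was smaller than its SE. Whether their differences departed from that of Kynu was not tested. Kmo signals were 9.82, 10.01, 9.91, 9.75 and 9.65 in the seasoned livers. They were 9.96, 10.15, 9.71, 9.35 and 9.78 in the controls, so that the control range enclosed the seasoned one. The difference was 0.04 ± 0.15 (SE), with -0.07 without control animal 11, -0.14 in animals 1 to 7 and 0.09 in animals 8 to 14, so its sign was not settled.

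Haao signals were 10.195, 10.120, 10.229, 10.039 and 10.233 with seasoning. Without it they were 10.462, 10.306, 10.119, 10.001 and 10.009. The controls spread more widely than the seasoned livers and enclosed them. The difference was -0.02 ± 0.10 (SE), with -0.06 without control animal 11, -0.20 in animals 1 to 7 and 0.09 in animals 8 to 14.

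The signal of Kmo parted the livers by animal number rather than by diet. This division had been found in the same arrays, so the separation is given as a description. All 5 livers of animals 8 to 14 (9.35 to 9.78) were below all 5 of animals 1 to 7 (9.82 to 10.15), and the mean of the within-diet differences was -0.33. Of all genes 8.19%, and of varying genes 19.1%, had such a separation with animals 8 to 14 lower, so Kmo shares this pattern with many genes. For Haao the same difference was -0.19, with overlap, since seasoned animal 13 was at 10.23. For Kynu it was 0.02, for Tdo2 -0.07 and for Acmsd -0.02. Animals 1 to 7 comprise 3 seasoned and 2 control livers, and animals 8 to 14 comprise 2 and 3.

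**Figure D2:**
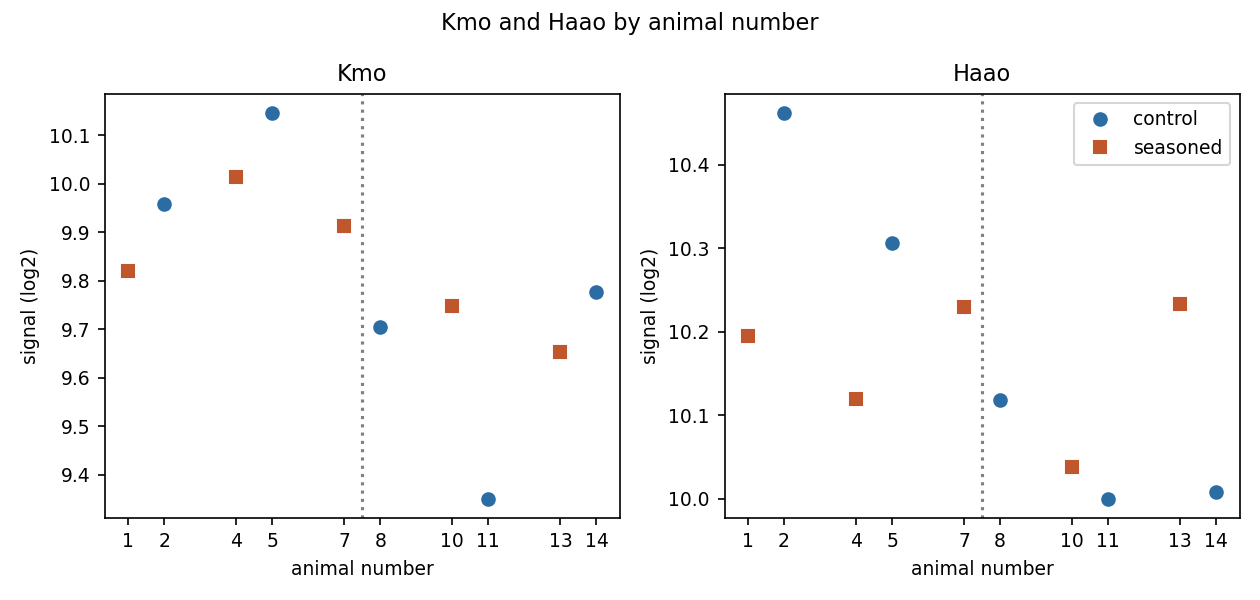
Log2 signals of Kmo and Haao against animal number, with the diet by colour and shape; the dotted line parts animals 1 to 7 from animals 8 to 14. Every Kmo value right of the line is at or below 9.78 and every value left of it at or above 9.82, in both diets.

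At the fork, Acmsd varied most of the 6 genes from liver to liver. Its signals were 7.61, 6.97, 7.40, 6.86 and 7.68 with seasoning and 7.29, 7.02, 7.27, 7.38 and 6.84 without. Seasoned animals 13 and 1 were highest, and the lowest liver of each diet lay at nearly the same signal, so the groups overlapped. The means were 7.30 ± 0.37 (SD) and 7.16 ± 0.22, a difference of 0.14 ± 0.19 (SE). The difference was smaller than its SE, so its sign was not settled. It stayed above 0 with any 1 liver left out, between 0.05 and 0.25, but those views share most of their livers.

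Qprt, at the other arm, gave no usable contrast. Its brighter probe set was at 9.93 in every liver, with an SD of 0.00010 over the 10 arrays. The further probe set varied, at 7.56, 7.48, 7.61, 7.71 and 7.86 in the seasoned livers and 7.55, 7.74, 7.78, 7.70 and 7.98 in the controls. The groups overlapped there, and the difference was -0.11 ± 0.10 (SE). The deposited values do not show which of the 2 probe sets follows the Qprt transcript.

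Along the pathway the differences thus ran -0.19 (Tdo2), 0.04 (Kmo), 0.23 (Kynu), -0.02 (Haao), 0.14 (Acmsd) and 0.00006 (Qprt). The median over the 6 genes was 0.02, beside 0.000015 over all genes. Over the 5 varying members it was 0.04, beside 0.02 over all varying genes. The groups did not overlap in 1 of the 6, Kynu, where 0.549% of all genes and 1.61% of varying genes had this property with the seasoned livers higher. Nothing is read from this count, since the pathway was chosen on this contrast. As background, limma with Benjamini-Hochberg adjustment over all 14217 genes called 0 of them (0.0%), and 4.71% had an unadjusted p under 0.05 (2.95% higher and 1.75% lower with seasoning). In a limma fit of the 2613 varying genes alone, 4 (0.153%) were called and 316 had an unadjusted p under 0.05. The sample codes give all seasoned livers the letter A and all controls the letter B, so if the letter is an array row, row and diet cannot be told apart.

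**Figure D3:**
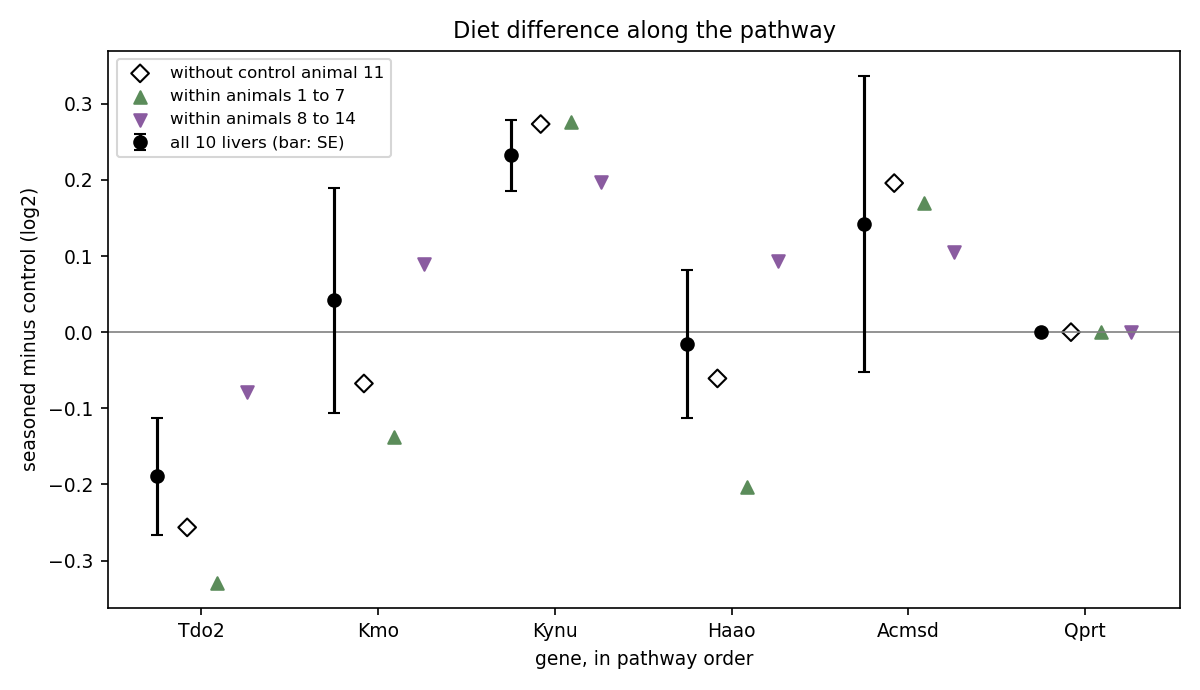
Difference of the log2 signal (seasoned minus control) of the 6 genes in pathway order, for all 10 livers with its SE, without control animal 11, and within each set of animals. Kynu and Acmsd lie above 0 and Tdo2 below 0 in all 4 views, while Kmo and Haao change sign. The Acmsd difference (0.14) is smaller than its SE (0.19). The views share livers, and the Kynu groups did not overlap, so the sign of Kynu could not change in any of them.

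The spread within each diet was not tested and is given as values. The SD was larger in the controls for 4 of the 5 varying members (all but Acmsd), as it was for 54.5% of varying genes. It was 3.75 times the seasoned SD for Tdo2, 3.58 times for Kynu, 2.41 times for Haao and 2.12 times for Kmo. Without control animal 11 the control SD fell from 0.17 to 0.08 for Tdo2 and from 0.30 to 0.20 for Kmo, and for Haao it was 0.20 with and without it. Control animal 11 lay outside the range of the other 4 controls in 5 of the 6 genes, highest for Kynu and Acmsd and lowest for Tdo2, Kmo and Haao. The same held for 58.7% of all genes and 61.7% of varying genes, so this was common on its array. In a group of 5 any liver is often the highest or the lowest, so part of these shares follows from the group size.

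Within the diets, the genes were compared on values centred on the mean of their diet, which leaves the diet contrast out. The 5 varying genes gave 10 pairs, and each was also set against Dbp, 15 relations in all. Of these, 0 passed at an adjusted p under 0.05 (exact two-sided permutation within the diets), and 1 did at an unadjusted p. It was Tdo2 with Kynu, with a Pearson r of -0.882 over 10 livers (exact permutation p = 0.0340, adjusted p = 0.352) and a Spearman rho of -0.527 (exact permutation p = 0.165, adjusted p = 0.460). Without control animals 2 and 11, which lay farthest from the median of Tdo2, r was -0.0281 (exact permutation p = 0.985), so the relation rests on those livers. Without control animal 11 alone it was -0.462.

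The remaining pairs were weaker. Tdo2 and Kmo had an r of 0.739 (rho 0.503) over 10 livers with an exact permutation p of 0.0873 for r, 0.185 for rho and an adjusted p of 0.352 for r, and 0.235 without control animals 2 and 11. Kynu and Haao, neighbours in the chain, had an r of -0.373 (exact permutation p = 0.508, adjusted p = 0.545) and a rho of -0.115 (exact permutation p = 0.813), but 0.919 without control animals 2 and 11 (exact permutation p = 0.0111, adjusted p = 0.167 over the 15 relations). The pooled r of this pair joins a positive relation in the seasoned livers and a negative one in the controls; with 5 livers in each, no r is given per diet and the contrast between them was not tested. With Dbp, r was -0.753 for Kynu and 0.781 for Tdo2 (exact permutation p = 0.0939 and 0.0517, adjusted p = 0.352 for both), with rho at -0.382 and 0.503 (exact permutation p = 0.271 and 0.127). Without control animals 2 and 11 these were -0.174 and 0.468, and without control animal 11 alone -0.0462 and 0.190.

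**Figure D4:**
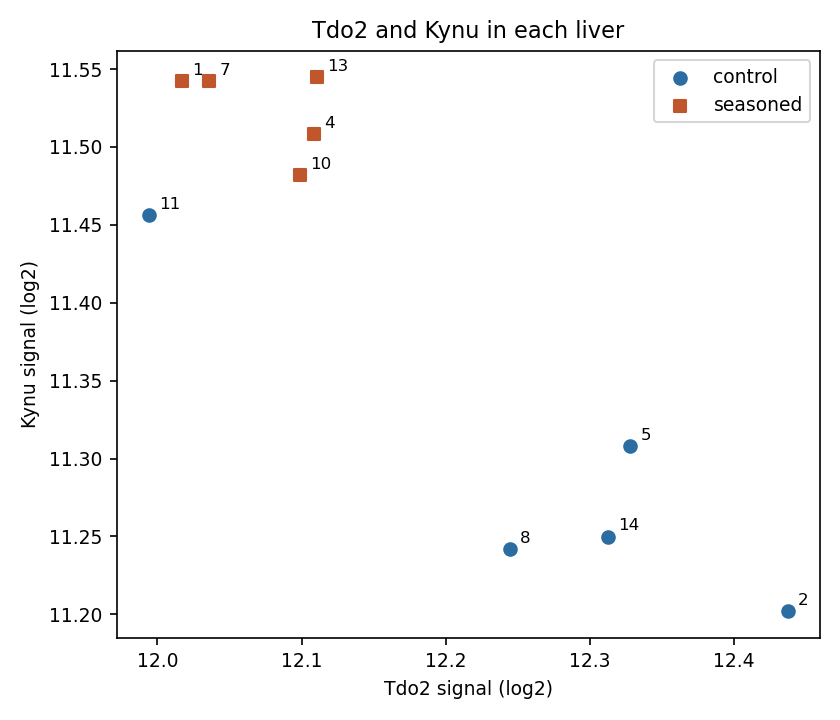
Log2 signal of Kynu against that of Tdo2 in each liver, with animal numbers and the diet by colour and shape. The 5 seasoned livers and control animal 11 form one cluster of low Tdo2 and high Kynu, apart from the other 4 controls. The pathway was chosen on Kynu in a fit without control animal 11, so the separation along the Kynu axis is no independent result.

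Across the other 2612 varying genes, the diet-centred patterns most like that of Kynu over the 10 livers were those of Cimip4 (r 0.885), the taurine transporter gene Slc6a6 (0.885), the tropomyosin gene Tpm4 (0.833), the lysyl oxidase gene Lox (0.821) and the TNF receptor gene Tnfrsf1b (0.818). The most opposite were the hypoxia factor gene Epas1 (-0.953), the stress gene Nupr1 (-0.906), the acyl-CoA binding protein gene Dbi (-0.888), Tdo2 (-0.882) and the hepatic lipase gene Lipc (-0.878). These are the extremes of many correlations and are given as a description. The signals of Epas1 and Tpm4 hardly moved, near the SD cut of 0.01 for varying genes. Their SDs with seasoning and in the controls were 0.0075 and 0.0326 for Epas1, and 0.012 and 0.0146 for Tpm4. Control animal 11 was the highest control in each of the first 5 and the lowest in each of the last 5. Without it r was -0.0563 for Cimip4, 0.129 for Slc6a6 and -0.462 for Tdo2, but 0.836 for Tnfrsf1b and -0.749 for Epas1.

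Of 48 other genes of tryptophan and NAD metabolism, listed by role, 39 were measured and 14 of these varied. By limma adjusted over all genes, 0 rose and 0 fell, but 0.0% of all 14217 genes were called in that fit. The median difference was 0.000063. At an unadjusted p under 0.05, which 4.71% of all genes had, there were Nnmt and Ahr. Nnmt was lower. The difference of Ahr, a receptor for kynurenine, was 0.00030 at a near-constant signal and has no measurable size. Of the 14 varying genes, 7 had a positive and 7 a negative difference, with a median size of 0.09, beside one of 0.09 over all varying genes.

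Nnmt, which methylates nicotinamide and so removes it from reuse, had the largest difference of the list. Its signals were 8.53, 8.23, 8.54, 8.52 and 8.89 in the seasoned livers. In the controls they were 9.19, 9.11, 9.19, 8.76 and 9.08. Only control animal 11 and seasoned animal 13 crossed, each lying inside the range of the other diet. The difference was -0.53 ± 0.13 (SE), or 1.44-fold lower with seasoning, with an adjusted p of 0.591 over all genes and 0.0929 among varying genes by limma (0.153% of varying genes passed). Without control animal 11 it was -0.60, with an adjusted p of 0.273 over all genes and 0.0371 among varying genes by limma (1.99% of which passed in that fit), so the latter call depended on leaving out that liver. With any 1 liver left out the adjusted p ran from 0.0371 to 0.252 among varying genes by limma. It was -0.72 in animals 1 to 7 and -0.30 in animals 8 to 14.

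Nampt, the rate-limiting enzyme of NAD salvage from nicotinamide, differed by -0.40 ± 0.34 (SE) but with wide spread. Its control signals ran from 8.28 in animal 2 to 9.95 in animal 8, and the seasoned ones from 8.21 to 8.97. A second probe set differed by -0.33. Without control animal 8 the difference was -0.17, and without control animal 11 it was -0.54.

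At the entry of the pathway, Afmid, which releases kynurenine from the product of Tdo2, differed by 0.21 ± 0.12 (SE). Its 3 probe sets had the same sign, the further ones at 0.26 and 0.26. Seasoned animal 1 was highest at 9.62 and control animal 11 lowest at 8.99. Without that control the difference was 0.17. Slc3a2, the heavy chain of amino acid transporters, differed by 0.13 ± 0.13, with 0.08 without control animal 11 and 0.08 to 0.22 with any 1 liver left out. None of these passed by limma.

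In the side branches, Aadat, a kynurenine aminotransferase, differed by -0.10 ± 0.13 (SE) and Ddc, the aromatic amino acid decarboxylase, by -0.07 ± 0.11. In NAD assembly, Nmnat3 differed by 0.14 ± 0.14 and Naprt, which uses nicotinic acid, by 0.07 ± 0.05. The aldehyde oxidase gene Aox1 differed by 0.08 ± 0.10 and the mitochondrial NAD-dependent deacylase gene Sirt3 by 0.10 ± 0.10. Each of these 6 had an adjusted p of 0.9995 by limma. Without control animal 11 the difference was 0.04 for Nmnat3, 0.05 for Sirt3 and -0.17 for Aadat, each moved by over 1.5 times, and -0.08 for Ddc, 0.06 for Naprt and 0.07 for Aox1. All 4 measured genes of the glutarate branch after Acmsd were near-constant, as were 9 of the 10 measured NAD users and 81.6% of all genes. The deposited values of such genes give no usable contrast, so stable expression cannot be read from them.

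**Figure D5:**
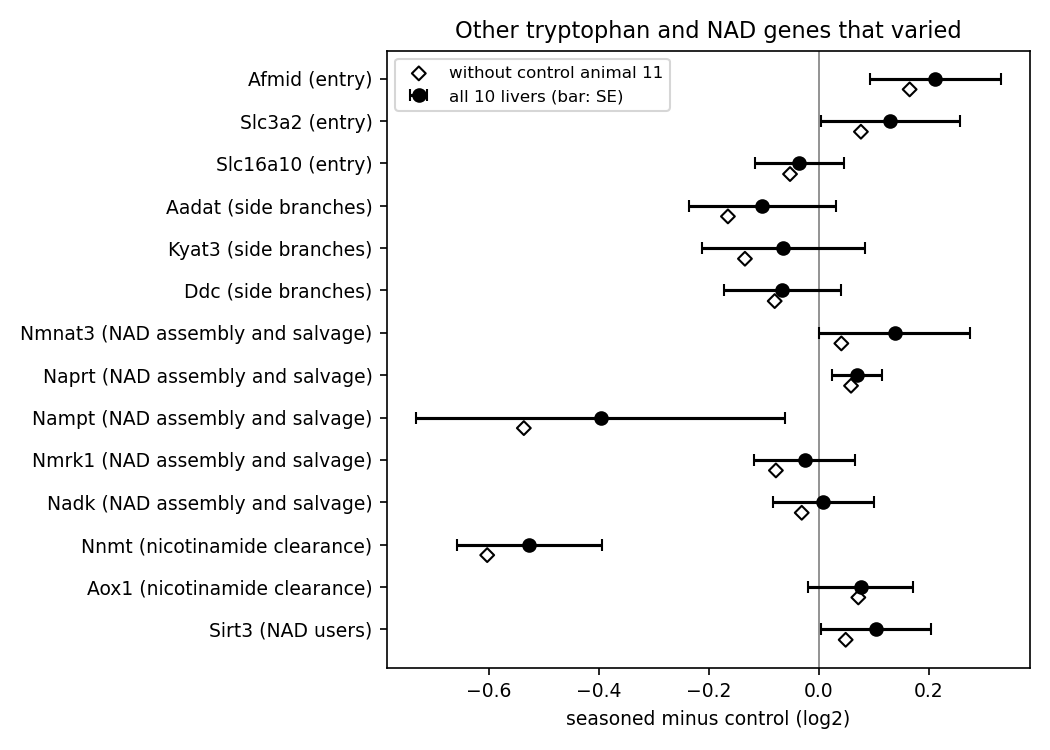
Difference of the log2 signal (seasoned minus control) with its SE for the 14 varying genes among the other tryptophan and NAD genes, and the same without control animal 11. Nnmt lies farthest from 0 (-0.53), and Nampt has the widest error.

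Macrophages are known to express Kmo and Kynu as well. Of the 11 Kupffer cell and macrophage markers 9 were measured and 0 passed by limma, but so did 0.0% of all 14217 genes. At an unadjusted p under 0.05 there were 0 of the 9, beside 4.71% of all genes. Their summed signal on the linear scale was 2934 to 4697 in the seasoned livers and 3207 to 3959 in the controls, with control animal 11 at 3481. The hepatocyte sum was 70868 to 72926 and 69885 to 74280, with control animal 11 the highest. Only 2 of the 6 measured hepatocyte markers were varying, beside 8 of the 9 macrophage markers. Near-constant values give no usable contrast, so a stable share of hepatocytes cannot be read from this sum. None of these markers was at 0, and their part in the Kynu and Kmo values was not tested. In whole liver, fewer cells of a type and less RNA per cell cannot be told apart.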

How the data were processed

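Liver RNA of 10 rats was measured on 1 Affymetrix rat array each, from biotin-labelled cRNA made from 100 ng of total RNA per the labels' protocols. The deposited values are log2 signals, 1 for each probe set of an array; the authors' summary and normalization are not given in the sources used here, and the log base was read from the values (4.79 to 14.34). No detection calls were used, so the number of arrays limits the precision. After 57 controls were removed, the platform table gave 20826 probe sets 1 gene, 436 several and 9780 none; symbols were updated through GRCr8 gene identifiers (20758 matched). The probe set with the highest mean stood for a gene. limma 3.58.1 (R 4.3.3; lmFit, eBayes, two-sided, no covariate) was fitted to all 14217 genes with Benjamini-Hochberg adjustment at 0.05, and its fit was tested on simulated data. SEs are unmoderated. Animals are numbered separately in the titles, so p-values measure the spread between rats. Correlations used exact permutation within the diets.

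The members and lists were chosen with earlier results of these data known. Named genes are the 6 members, the other pathway genes with the 10 largest differences among those with an SD above 0.01, the 5 most and 5 least similar to Kynu, and context genes, of which Tat, Sds and Klf9 are not shown; Ahr was named after its values were seen. Alternatives were other probe set rules, a filter on dim probe sets, rescaling, animal-number and pairing terms, other variance models, varying genes alone and leaving out each array. The varying-gene fits with a block or without an array were added after seeing the data.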

Additional observations from a re-analysis of the deposited data

Results flagged for a closer look

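Of 50 groups of 5 livers examined (the 7 member probe sets, 4 context genes and 14 other pathway genes, in both diets), 3 had an end value separated from the next one by more than 0.71 of the range over the group; chance gives about 1 in 20, or 2.5. None was in a member of the pathway. Nnmt was low in control animal 11 (8.76, ratio 0.7289), and so was Dbp (7.28, ratio 0.8336). Ddc was high in seasoned animal 7 (9.44, ratio 0.8522).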

How the results depend on the processing

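The Kynu difference lay between 0.21 and 0.27 and that of Tdo2 between -0.26 and -0.15 over all 18 alternatives tried for each. Those of Acmsd (0.05 to 0.25), Kmo (-0.07 to 0.13) and Haao (-0.06 to 0.05) moved by less than the spread between livers. Each of these genes rests on 1 probe set, so the other probe set rules could not move its difference. The dim filter, the varying-gene fit and the pairing term could not either. Of the 18 alternatives, 10 left out 1 liver. Qprt moved to -0.105 with the more variable probe set, -0.0525 with the mean of both and -0.0034 after repeated quantile normalization. Over all genes 0 were called in every fit but those of the varying genes alone (4) and without control animal 11 (5), so that leaving out 1 liver gave 0 to 5. Among varying genes the calls were 12 with the animal-number block and 0 to 52 with 1 liver left out. Of the other pathway genes 0 were called over all genes under each of 20 alternatives, and 0 to 1 among varying genes.

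No relation within the diets passed after adjustment under any alternative. Centred on diet and animal-number set, livers were permuted within groups of 2 or 3. So few permutations exist there that no single relation could have passed, and that alternative is no check. Without the 2 farthest livers the sign turned for Tdo2 and Haao (-0.0707), Kynu and Haao (0.919), Kmo and Dbp (-0.752) and Haao and Dbp (-0.0378), and centred on animal-number set also for Kmo and Haao (-0.232). With 1 liver left out r ran from -0.428 to 0.600 for Kmo and Dbp, -0.136 to 0.486 for Haao and Dbp, -0.798 to 0.270 for Kmo and Kynu and -0.539 to 0.0929 for Kynu and Haao. The cause was not tested. The diets share no animal number in the labels. A fit that assumed consecutive animals to be pairs called 0 genes, with 800 at an unadjusted p under 0.05 (669 without the pairing), among them 5 of the other pathway genes (2 without it).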
